A study of Mus musculus with 6 samples.

Results

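The genes described here are the mouse chemokines and their receptors, taken by name: every protein-coding gene called Ccl, Cxcl, Ccr or Cxcr with a number, the atypical receptors Ackr1 to Ackr4, and Pf4, Ppbp, Cx3cl1, Cx3cr1, Xcl1 and Xcr1. Of the 38561 gene IDs in the count tables, 61 met this rule: 39 ligands, 18 signalling receptors and 4 atypical receptors. Cxcl11 has a fitting name but is annotated as a polymorphic pseudogene and was left out. Of the 61 genes, 57 had at least 1 read, and 53 had enough reads to be tested.

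Chemokines are small secreted proteins that guide the movement of cells, above all leukocytes, along concentration gradients. They bind receptors that span the cell membrane and couple to inhibitory G proteins, and the set of receptors on a leukocyte decides which ligands it follows. Inflammatory ligands such as Ccl2 and Cxcl1 are induced by cytokines in stromal cells, endothelium and macrophages, homeostatic ligands such as Ccl21a, Cxcl12 and Cxcl13 place lymphocytes and progenitors in tissues, and atypical receptors bind ligands without the usual signal. In tumors, the Ccl2 and Ccr2 pair is best known for drawing monocytes that become macrophages.

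RNA was sequenced from 3 groups of 2 libraries, and all 6 libraries came from NG2-Cre;p53flox/flox mice of mixed background, so the controls carry the same alleles as the tumors. Cre expression follows the Cspg4 promoter (Cspg4 encodes NG2, a proteoglycan on pericytes) and deletes the floxed part of Trp53. The groups were perivascular cells of skeletal muscle that were picked by an NG2 antibody sort (called NG2 cells here, labelled normal), primary osteosarcomas from the right tibia (replicate 1) and the lumbar spine (replicate 2), and primary subcutaneous soft tissue sarcomas. Age was not given, the tumors were not sorted, and the labels do not say whether each library came from its own animal, so p-values reflect how far these 2 libraries per group differed, which may be technical. The title of the series names the question of whether mesenchymal tumors derive from pericytes, and the comparisons the design allows are each tumor type against the NG2 cells and the tumor types against each other.

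Reads counted on genes ranged from 27693585 to 58126832 per library. Trp53, the floxed gene, had 101 and 82.3 CPM (counts scaled to the size of each library) in NG2 cells and 24.3 to 32.6 CPM in the 4 tumors, and Cspg4 had 38.6 and 30.6 CPM in the sorted cells and 37.7 to 188 CPM in the tumors. Counts over the whole Trp53 gene include exons that are not floxed and check the deletion only weakly. Summed over 7 B cell markers, the NG2 cell libraries had 5075 and 1628 CPM and the tumors 2.08 to 8.96 CPM, whereas 6 pericyte markers came to 887 and 1422 CPM in NG2 cells and 271 to 771 CPM in the tumors. Transcripts of B cells were thus part of the libraries of sorted cells. The single pericyte markers did not all follow their sum. Their median log2 fold change against NG2 cells was 1.40 in osteosarcoma and -0.83 in soft tissue sarcoma. Within groups, NG2 cell replicate 2 stood apart in 7 neutrophil markers (3084 against 59.8 CPM) and osteosarcoma replicate 2 in 6 osteoclast markers (14688 against 719 CPM). Xist was high in NG2 cells (347 and 488 CPM) and at most 0.135 CPM in the soft tissue sarcomas, whose libraries had the Y-linked Ddx3y at 76.7 and 43.1 CPM. Osteosarcoma replicate 1 held both Xist (54.2 CPM) and Ddx3y (14.8 CPM), and osteosarcoma replicate 2 held Xist (204 CPM) with Ddx3y at 0.0356 CPM. Sex and group cannot be told apart between NG2 cells and soft tissue sarcoma, nor can group and flow cell lane, since the deposited names give each group its own lane. In such bulk RNA, fewer cells of a type and less RNA per cell cannot be told apart either.

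Genes such as Ccr7, Cxcr5, Cxcr4, Cxcl1 and Cxcl2, which serve lymphocytes and neutrophils, fell in both tumor types, and the monocyte-attracting ligands Ccl2, Ccl7, Ccl8 and Ccl12 rose in soft tissue sarcoma. In osteosarcoma, 25 of the 53 tested genes fell and 0 rose (edgeR, adjusted p under 0.05), against 11.0% of all 19024 tested genes that fell and 10.5% that rose. Those that fell were 14 of 32 tested ligands, 10 of 17 receptors and 1 of 4 atypical receptors. The median log2 fold change of the 53 was -2.58, where that of all tested genes was 0.04. The libraries did not overlap for 33 genes that were lower and 8 that were higher in osteosarcoma, against 32.4% and 32.7% of all tested genes. At an unadjusted p under 0.05, 3 genes were higher, against 19.6% of all genes, and DESeq2 called Ccr3, Cxcl17 and Ackr4 higher, against 18.8% of all genes.

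Of the same 53 genes, 13 fell (24.5%) and 6 rose (11.3%) in soft tissue sarcoma, against 9.4% and 9.89% of all tested genes. The share that rose was thus near that of all genes. The 6 that rose were all ligands, namely Ccl2, Ccl7, Ccl8, Ccl12, Cx3cl1 and Cxcl17. The 13 that fell were 6 ligands (Ccl3, Ccl4, Ccl22, Cxcl1, Cxcl2, Cxcl13) and 7 receptors (Ccr6, Ccr7, Ccr8, Cxcr4, Cxcr5, Cxcr6, Xcr1). The median log2 fold change was -1.52, and 0.00 over all tested genes. The libraries did not overlap for 13 genes that were higher and 28 that were lower, against 35.8% and 34.6% of all tested genes. This comparison and that of osteosarcoma share the NG2 cell libraries. Between the tumor types, 2 genes, Ccl2 and Ccl7, were higher in soft tissue sarcoma and 0 lower, where 0.0841% of all tested genes were higher and 0.0578% lower. The median log2 fold change between the tumor types was 2.11 over the 53 genes and -0.03 over all tested genes, and 35 genes were higher without overlap and 4 lower, against 25.8% and 24.5%. At an unadjusted p under 0.05, 27 genes were higher and 4 lower, against 9.28% and 6.6% of all genes. DESeq2 called 21 higher and 3 (Ccr3, Ccl19, Ackr4) lower, against 6.52% and 4.4% of all genes.

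The number of calls changed when 1 library was left out, which also leaves less data to estimate the spread. Without NG2 cell replicate 2, 14 genes fell in osteosarcoma, and without osteosarcoma replicate 1, Ccl9 and Ccr3 rose there. Without either soft tissue sarcoma library, no tested gene passed against NG2 cells. Without NG2 cell replicate 1, 7 fell and 0 rose in soft tissue sarcoma (9 were higher at an unadjusted p under 0.05), and without replicate 2, 7 fell and Ccl7 rose. Between the tumor types, Ccl2, Ccl7, Ccl22, Cxcr6 and Cxcl12 were called higher in soft tissue sarcoma without osteosarcoma replicate 2, and 0 genes were called without any other library (19 to 28 at an unadjusted p under 0.05). Every call in soft tissue sarcoma against NG2 cells given below was therefore lost without each of its libraries, and the paragraphs give the adjusted p reached there. With 1 library left in a group, that library is assumed to vary like the other groups.

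**Figure D1:**
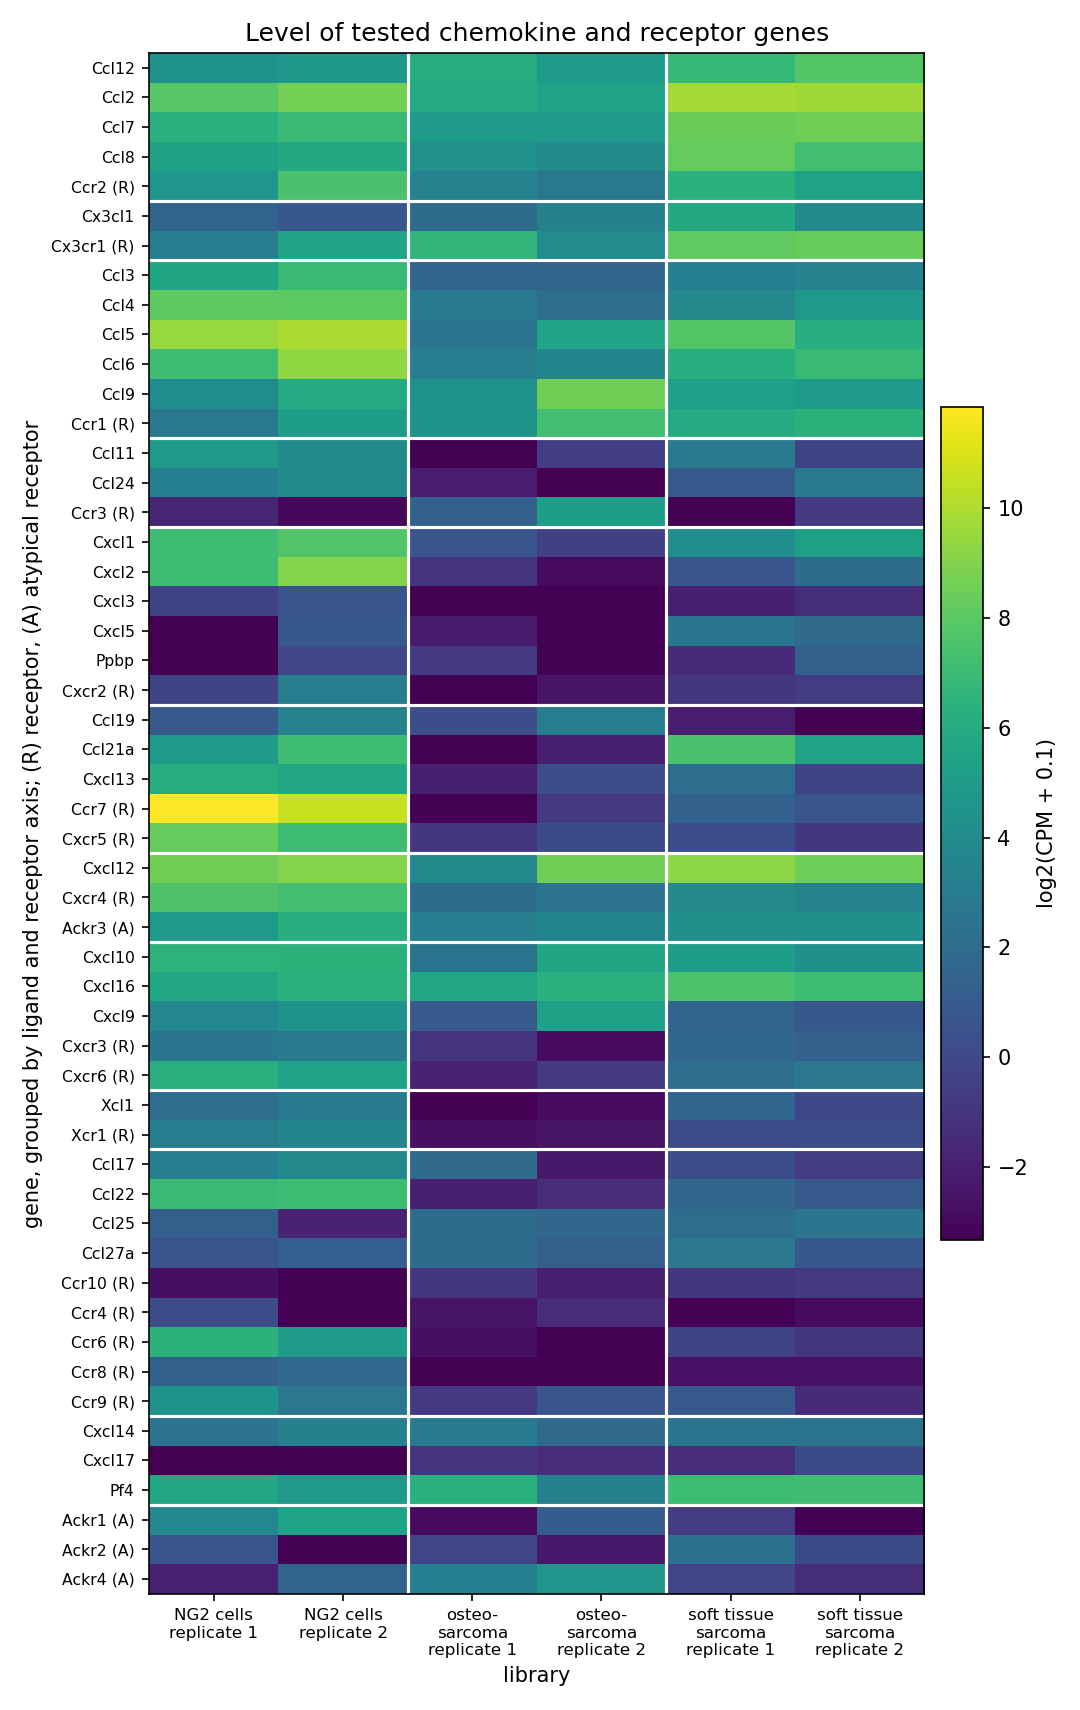
Level of the tested chemokine and receptor genes in each of the 6 libraries, as log2(CPM + 0.1), grouped by the receptor its genes belong to. Ccr7, Cxcr5, Cxcl1 and Cxcl2 are high in both NG2 cell libraries and low in the 4 tumors, and Ccl2, Ccl7, Ccl8 and Ccl12 are highest in both soft tissue sarcoma libraries.

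Ccl2, Ccl7, Ccl8 and Ccl12, the ligands of Ccr2 and related monocyte receptors, were higher in soft tissue sarcoma than in NG2 cells, and Ccl2 and Ccl7 were lower in osteosarcoma than in NG2 cells. The 4 genes lie close together on 1 strand of chromosome 11 (GRCm38), Ccl2 (ENSMUSG00000035385) at chr11:82035571-82037453, Ccl7 at chr11:82045712-82047525, Ccl12 at chr11:82101845-82103400 and Ccl8 at chr11:82115185-82116799. Their summed level was 380 and 616 CPM in the sorted cells, 180 and 120 in the osteosarcomas and 1658 and 1574 in the soft tissue sarcomas, so the groups did not overlap. Of this block, the promoter table of RefSeq (GRCm38.p6) held Ccl8 and Ccl12. The 250 bases before each start are shown because these neighbors rose together, with the TATA element (TATAAA) in capitals. Ccl8 is from chr11:82114935-82115184 and Ccl12 from chr11:82101595-82101844, both on the plus strand:
Ccl8: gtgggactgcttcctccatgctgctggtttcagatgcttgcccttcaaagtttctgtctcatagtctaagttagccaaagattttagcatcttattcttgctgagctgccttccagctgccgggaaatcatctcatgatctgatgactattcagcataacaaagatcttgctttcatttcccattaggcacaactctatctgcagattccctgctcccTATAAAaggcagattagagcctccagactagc
Ccl12: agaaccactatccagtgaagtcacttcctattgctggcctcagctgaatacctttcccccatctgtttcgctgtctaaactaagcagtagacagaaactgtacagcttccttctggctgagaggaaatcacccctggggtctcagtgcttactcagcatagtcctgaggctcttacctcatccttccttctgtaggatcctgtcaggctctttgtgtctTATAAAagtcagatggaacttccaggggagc
The element began 32 bases before the start of Ccl8 and 31 before that of Ccl12. Searched as TATAAA on both strands, it was in 15 of the 47 chemokine and receptor genes in the table and in 14.3% of the windows of all 27025 genes. Neither promoter held a κB element (searched by that name, on both strands), an AP-1 element (TGANTCA), a CRE (TGACGTCA) or an IRF element (by name).

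Ccl2, the main attractant of Ccr2-bearing monocytes, had 237 and 401 CPM in the sorted cells, 62.2 and 44.3 in the osteosarcomas and 885 and 823 in the soft tissue sarcomas. Both osteosarcomas lay below and both soft tissue sarcomas above the NG2 cells. Ccl2 fell 5.99-fold in osteosarcoma (edgeR adjusted p = 0.0104, log2 fold change -2.58 ± 0.37, SE, n = 2 per group) and rose 2.68-fold in soft tissue sarcoma (1.42 ± 0.36, adjusted p = 0.0419). Between the tumor types it differed 16-fold (log2 fold change 4.0 ± 0.39, adjusted p = 0.0459). Ccl7, which binds Ccr1, Ccr2 and Ccr3, showed the same order. It had 79.8 and 127 CPM in the sorted cells, 30.4 and 29.7 in the osteosarcomas and 352 and 379 in the soft tissue sarcomas. It fell 3.45-fold in osteosarcoma (adjusted p = 0.0165), rose 3.53-fold in soft tissue sarcoma (adjusted p = 0.0171) and differed 12.2-fold between the tumor types (3.60 ± 0.33, adjusted p = 0.0434). By p, Ccl7 ranked 14 and Ccl2 ranked 20 of 19024 genes between the tumor types. Without any 1 library other than osteosarcoma replicate 2, both calls between the tumor types were lost (adjusted p = 0.0537 to 0.280), as they were with only the tumor libraries in the model (0.0705), while the log2 fold changes stayed at 3.78 to 4.28 for Ccl2 and 3.56 to 3.66 for Ccl7 without 1 library. The fall of Ccl2 in osteosarcoma passed in all 6 such fits. That of Ccl7 reached an adjusted p of 0.0549 without NG2 cell replicate 2 and 0.0503 without soft tissue sarcoma replicate 1. The rises in soft tissue sarcoma were also lost without NG2 cell replicate 1 (adjusted p = 0.128 for Ccl2 and 0.0632 for Ccl7), that of Ccl2 without NG2 cell replicate 2 (0.0658), and both without either soft tissue sarcoma library (0.104 to 0.180).

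Ccl8, another ligand of Ccr2 and related receptors, had 41.1 and 60.1 CPM in the sorted cells, 20.4 and 15.2 in the osteosarcomas and 306 and 151 in the soft tissue sarcomas. It rose 4.52-fold in soft tissue sarcoma (log2 fold change 2.18 ± 0.44, adjusted p = 0.0251), and its differences in osteosarcoma (-1.50, adjusted p = 0.0542) and between the tumor types (3.68 ± 0.46, adjusted p = 0.0583) missed the threshold. Ccl12, a mouse ligand of Ccr2 with no direct human counterpart, had 22.3 and 27.1 CPM in the sorted cells, 67.4 and 31.1 in the osteosarcomas and 115 and 220 in the soft tissue sarcomas. It was the member of the block that was not lower in either osteosarcoma than in the NG2 cells (log2 fold change 1.00, adjusted p = 0.183), and it rose 6.79-fold in soft tissue sarcoma (2.76 ± 0.51, adjusted p = 0.0211). Both rises were lost without either NG2 cell library (adjusted p = 0.0799 to 0.105) and without either soft tissue sarcoma library (0.0817 to 0.131), and without soft tissue sarcoma replicate 1 the log2 fold change of Ccl8 was 1.58. Ccl11 (eotaxin) lies between Ccl7 and Ccl12 at chr11:82057823-82062955 and attracts eosinophils through Ccr3. It did not rise with its neighbors in soft tissue sarcoma against NG2 cells, but its osteosarcoma libraries were also the lowest, as for Ccl2 and Ccl7. It had 29.0 and 15.1 CPM in the sorted cells, 0 and 0.569 in the osteosarcomas and 7.90 and 0.775 in the soft tissue sarcomas, and passed in no comparison (adjusted p = 0.0675, 0.334 and 0.354).

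Ccr2, the receptor of this block, did not rise with its ligands. It had 24.9 and 180 CPM in the sorted cells, 10.5 and 6.58 in the osteosarcomas and 80.4 and 44.6 in the soft tissue sarcomas, where the soft tissue sarcomas lay between the NG2 cell libraries (log2 fold change -0.71 ± 0.86, adjusted p = 0.582). It fell 12-fold in osteosarcoma (adjusted p = 0.0460), a call that was lost in 5 of the 6 fits without 1 library (adjusted p = 0.0816 to 0.126), and without NG2 cell replicate 2 the log2 fold change moved from -3.58 to -1.55. Without NG2 cell replicate 1 it was -4.40 and passed. Fractalkine and its receptor, the pair Cx3cl1 and Cx3cr1 of patrolling monocytes and tissue macrophages, were both highest in soft tissue sarcoma. Cx3cl1 had 2.80 and 1.60 CPM in the sorted cells, 3.94 and 9.67 in the osteosarcomas and 59.8 and 14.4 in the soft tissue sarcomas. It rose 16.9-fold in soft tissue sarcoma (log2 fold change 4.08 ± 0.90, adjusted p = 0.0312), with a log2 fold change of 2.71 without soft tissue sarcoma replicate 1 and 4.73 without replicate 2 (adjusted p = 0.0826 to 0.161 without any 1 library of either group). Cx3cr1 had 8.34 and 45.6 CPM in the sorted cells, 99.9 and 15.8 in the osteosarcomas and 279 and 319 in the soft tissue sarcomas. Its log2 fold change in soft tissue sarcoma was 3.47 ± 1.11 and missed the threshold (adjusted p = 0.0756), although both soft tissue sarcomas lay above every other library. Of 8 monocyte and macrophage markers, 3 rose and 1 fell in osteosarcoma, 3 rose and 0 fell in soft tissue sarcoma, and 0 of 8 differed between the tumor types, with a sum of 894 and 2451 CPM in the sorted cells, 1905 and 1901 in the osteosarcomas and 4852 and 4039 in the soft tissue sarcomas. None of the 8 was at 0 in any group, and the part of these cells in the levels of the ligands was not tested.

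**Figure D2:**
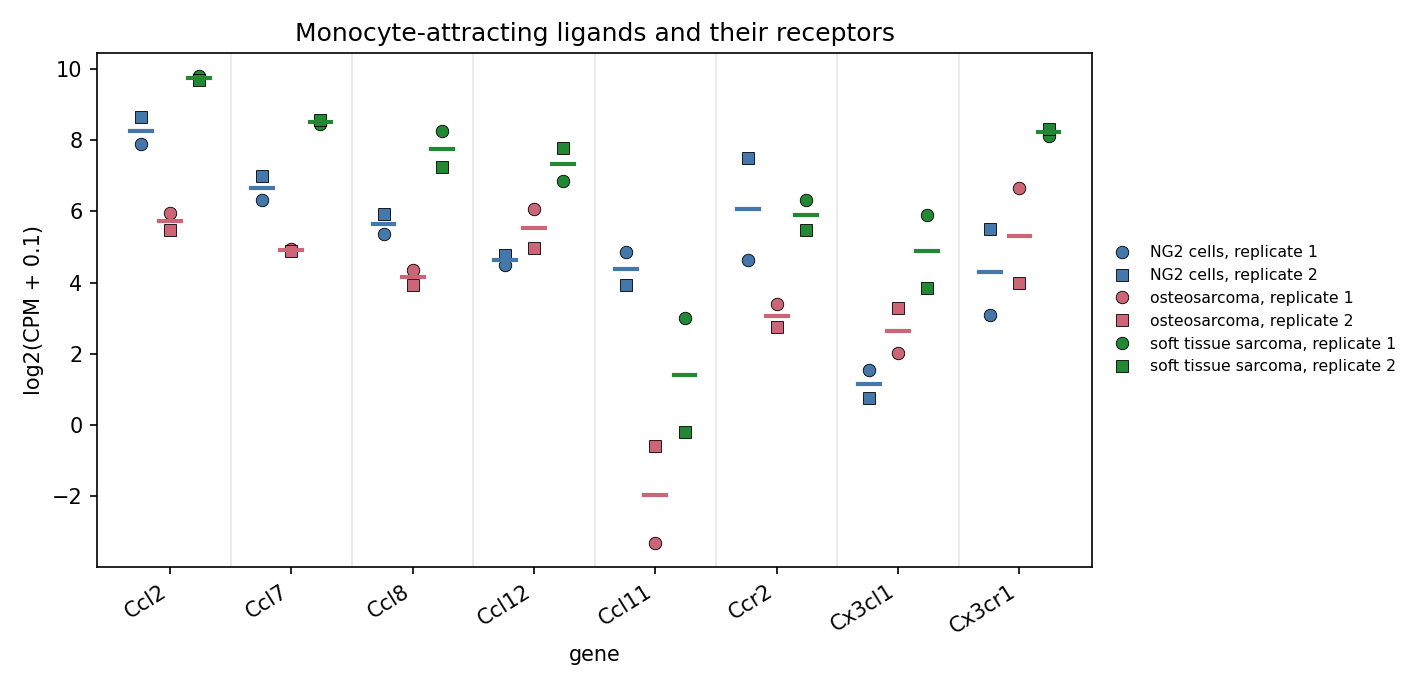
Monocyte-attracting ligands and their receptors in the 6 libraries, as log2(CPM + 0.1), with circles for replicate 1, squares for replicate 2 and a bar at the mean of both. Ccl2, Ccl7 and Ccl8 form 3 levels, lowest in osteosarcoma and highest in soft tissue sarcoma (885 and 823 CPM for Ccl2), while Ccl11 is below both NG2 cell libraries in all 4 tumors.

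Cxcl1, Cxcl2 and Cxcl3, neutrophil-attracting ligands of Cxcr2, were lower in all 4 tumors than in either NG2 cell library. They are close relatives that lie within chr5:90786103-90905938, and their promoters are shown because all 3 fell in osteosarcoma and hold the same κB element. The bases are the 250 before the RefSeq start (GRCm38.p6, plus strand), from chr5:90890995-90891244 for Cxcl1, chr5:90903649-90903898 for Cxcl2 and chr5:90785851-90786100 for Cxcl3, with the κB element and, in Cxcl3, the TATA element in capitals:
Cxcl1: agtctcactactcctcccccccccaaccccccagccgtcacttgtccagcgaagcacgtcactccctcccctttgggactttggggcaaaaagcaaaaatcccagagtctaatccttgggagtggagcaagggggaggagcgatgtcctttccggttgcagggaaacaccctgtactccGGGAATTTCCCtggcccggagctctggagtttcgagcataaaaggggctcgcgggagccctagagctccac
Cxcl2: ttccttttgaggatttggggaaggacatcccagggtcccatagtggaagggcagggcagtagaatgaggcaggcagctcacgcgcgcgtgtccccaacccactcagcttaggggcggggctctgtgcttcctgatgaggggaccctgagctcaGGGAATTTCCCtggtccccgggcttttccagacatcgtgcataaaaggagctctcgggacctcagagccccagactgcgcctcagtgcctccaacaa
Cxcl3: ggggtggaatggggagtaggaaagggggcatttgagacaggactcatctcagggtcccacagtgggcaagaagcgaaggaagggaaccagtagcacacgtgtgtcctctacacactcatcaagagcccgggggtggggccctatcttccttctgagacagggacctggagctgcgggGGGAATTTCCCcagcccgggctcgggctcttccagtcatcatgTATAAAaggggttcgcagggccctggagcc
The stretch GGGAATTTCCC is the same in all 3 genes and holds a pair of overlapping κB matches. It began 71 bases before the start in Cxcl1, 97 in Cxcl2 and 73 in Cxcl3. A κB match was found in 11 of the 47 chemokine and receptor genes in the table (Ccl1, Ccl9, Ccl20, Ccr1, Ccr3, Ccr6, Cxcl1, Cxcl2, Cxcl3, Cxcl10 and Ackr2) and in 8.23% of the windows of all 27025 genes. It was in 4 of the 18 that fell in osteosarcoma and in 7 of the other 29. An AP-1 element was in 7 of the 47 and in 7.82% of all windows, an IRF element in 3 (Ccl19, Cxcl10 and Cxcl14) and in 3.46%, and a CRE in 0 and in 1.77%. Such a match is a description of these letters and not of binding.

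Cxcl1 (ENSMUSG00000029380) had 137 and 213 CPM in the sorted cells, 1.48 and 0.640 in the osteosarcomas and 17.3 and 39.1 in the soft tissue sarcomas. In osteosarcoma it fell 162-fold (log2 fold change -7.34 ± 0.72, adjusted p = 0.00552) and 6.23-fold in soft tissue sarcoma (-2.64 ± 0.57, adjusted p = 0.0306), and the difference between the tumor types missed the threshold (4.70 ± 0.64, adjusted p = 0.0659). Cxcl2 had 140 and 515 CPM in the sorted cells, 0.379 and 0.0356 in the osteosarcomas and 1.59 and 4.08 in the soft tissue sarcomas. All 4 tumors were thus far below either NG2 cell library, by log2 fold changes of -10.44 ± 1.31 in osteosarcoma (adjusted p = 0.00837) and -6.87 ± 1.11 in soft tissue sarcoma (adjusted p = 0.0157). Cxcl3 was scarcer, with 0.720 and 1.42 CPM in the sorted cells, 0 counts in the osteosarcomas, and 0.151 and 0.303 CPM in the soft tissue sarcomas. It was at least 28.9-fold lower in osteosarcoma (adjusted p = 0.0285, with the group's 0 counts set to 3), a call lost in all 6 fits without 1 library (adjusted p = 0.0518 to 0.0970). The falls of Cxcl1 and Cxcl2 in osteosarcoma passed in all 6. The log2 fold change of Cxcl1 was -8.12 without osteosarcoma replicate 1, and that of Cxcl2 was -9.23 without NG2 cell replicate 2, -11.10 without NG2 cell replicate 1 and -9.74 without osteosarcoma replicate 2. Without osteosarcoma replicate 1, a single read of Cxcl2 was left in the group. The call of Cxcl1 in soft tissue sarcoma was lost without either NG2 cell library (adjusted p = 0.0739 and 0.111) and that of Cxcl2 without NG2 cell replicate 2 (-5.63, adjusted p = 0.0569), and both without either soft tissue sarcoma library (0.0993 to 0.153). Without soft tissue sarcoma replicate 2 the values were -3.37 for Cxcl1 and -7.70 for Cxcl2, and without NG2 cell replicate 1 that of Cxcl2 was -7.50.

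Cxcr2, the neutrophil receptor of these ligands, had 0.748 and 8.0 CPM in the sorted cells, 0 and 0.0711 in the osteosarcomas (2 reads) and 0.453 and 0.539 in the soft tissue sarcomas. It fell in osteosarcoma (adjusted p = 0.0480), and the call was lost in all 6 fits without 1 library (adjusted p = 0.0535 to 0.168). Cxcr1 had 0 counts in every library. Of the 2 other ligands of this receptor, Cxcl5 had 0 and 1.74 CPM in the sorted cells, at most 0.114 CPM in the osteosarcomas, and 5.82 and 3.61 CPM in the soft tissue sarcomas, and Ppbp was at most 2.53 CPM in any library; neither passed in any comparison. The 7 neutrophil markers summed to 59.8 and 3084 CPM in the sorted cells, 21.4 and 26.8 in the osteosarcomas and 10.9 and 18.9 in the soft tissue sarcomas, with Ly6g at 0 in both tumor types. The spread of Cxcr2 and Cxcl2 between the NG2 cell replicates had the same order as these markers, and so had that of Ccl21a. With 2 libraries a gene can have only 1 of 2 orders. The part of neutrophils in the falls was not tested.

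Inflammatory ligands of Ccr1 and related receptors, which attract monocytes, T cells and NK cells, fell in osteosarcoma. Ccl4 (MIP-1β) was even between the NG2 cell libraries, with 271 and 262 CPM there, 7.94 and 4.44 CPM in the osteosarcomas, and 14.2 and 28.1 CPM in the soft tissue sarcomas. In osteosarcoma it fell 42.9-fold (log2 fold change -5.42 ± 0.52, adjusted p = 0.00552) and 12.6-fold in soft tissue sarcoma (-3.66 ± 0.48, adjusted p = 0.0110). Ccl3 (MIP-1α) had 47.6 and 119 CPM in the sorted cells, 2.92 and 3.02 in the osteosarcomas and 9.26 and 10.6 in the soft tissue sarcomas. It fell 28-fold and 8.38-fold (adjusted p = 0.00710 and 0.0160). Ccl5 (RANTES), a product of activated T and NK cells, had 715 and 967 CPM in the sorted cells, 5.80 and 46.5 in the osteosarcomas and 222 and 71.4 in the soft tissue sarcomas. Its libraries did not overlap in any comparison, but it passed in osteosarcoma alone (-5.01 ± 1.13, adjusted p = 0.0312), with a log2 fold change of -2.52 in soft tissue sarcoma (adjusted p = 0.128) and no passing difference between the tumor types (2.49, adjusted p = 0.311). Ccl6, a rodent ligand of Ccr1, had 141 and 641 CPM in the sorted cells, 8.87 and 11.9 in the osteosarcomas and 76.6 and 119 in the soft tissue sarcomas. It fell 37.6-fold in osteosarcoma (adjusted p = 0.0128). The fall of Ccl5 was lost without either NG2 cell library or either soft tissue sarcoma library (adjusted p = 0.0542 to 0.0938), and it was -4.21 without osteosarcoma replicate 1 and -7.18 without replicate 2. Those of Ccl3, Ccl4 and Ccl6 in osteosarcoma passed in all 6 fits, with Ccl3 at -4.0 without NG2 cell replicate 2, and Ccl6 at -3.76 without NG2 cell replicate 2 and -5.95 without replicate 1. For soft tissue sarcoma, Ccl3 and Ccl4 had an adjusted p of 0.0737 to 0.117 without either tumor library, Ccl4 was at -4.26 without soft tissue sarcoma replicate 2, and Ccl3 was at -2.26 (adjusted p = 0.0538) without NG2 cell replicate 2.

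Ccl9, Ccr1 and Ccr3 did not fall with these ligands. Ccl9, a rodent ligand of Ccr1 made by macrophages and osteoclasts, had 16.8 and 62.0 CPM in the sorted cells, 21 and 370 in the osteosarcomas and 37.4 and 29.3 in the soft tissue sarcomas. Ccr1 itself had 6.62 and 36.5 CPM in the sorted cells, 23.1 and 155 in the osteosarcomas and 65.0 and 87.1 in the soft tissue sarcomas. For both genes osteosarcoma replicate 2 was the highest library, and neither passed in a comparison (adjusted p = 0.210 to 0.950). Without osteosarcoma replicate 1, Ccl9 and Ccr3 were called higher in osteosarcoma. Ccr3, the eotaxin receptor, was at most 0.472 CPM outside osteosarcoma and at 2.48 and 36.4 CPM within it (log2 fold change against NG2 cells 7.49 ± 2.36, adjusted p = 0.0699), again highest in replicate 2. The 6 osteoclast markers had 77.7 and 85.4 CPM in the sorted cells, 719 and 14688 in the osteosarcomas and 291 and 203 in the soft tissue sarcomas, and none was at 0 in any group. Their part in the levels of Ccl9, Ccr1 and Ccr3 was not tested. Ccl24, a ligand of Ccr3, fell in osteosarcoma, with 9.39 and 15.3 CPM in the sorted cells, 0.133 and 0 in the osteosarcomas and 1.88 and 6.77 in the soft tissue sarcomas (-7.30 ± 1.40, adjusted p = 0.0211). This call was lost without either NG2 cell library (adjusted p = 0.0579 and 0.0696), and the log2 fold change was -6.51 without osteosarcoma replicate 2; without osteosarcoma replicate 1 no read was left in the group.

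**Figure D3:**
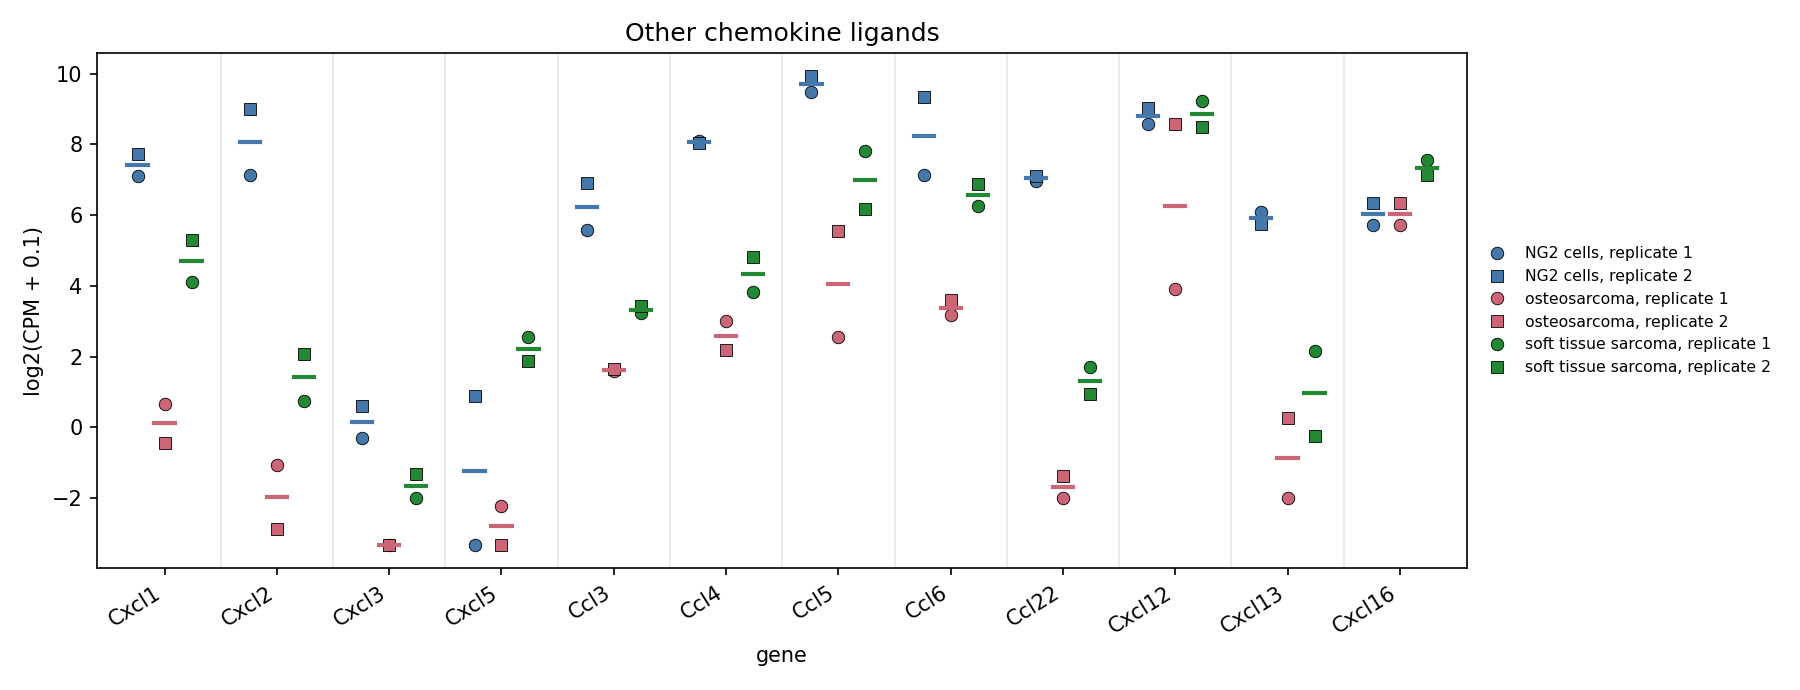
Chemokine ligands of the other axes in the 6 libraries, as log2(CPM + 0.1), with circles for replicate 1, squares for replicate 2 and a bar at the mean of both. Cxcl1, Cxcl2 and Ccl22 are lower in all 4 tumors than in both NG2 cell libraries, Cxcl12 is split between the osteosarcomas (15 and 380 CPM), and Cxcl16 is highest in soft tissue sarcoma.

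The receptors that lead lymphocytes into and within lymphoid tissue fell in both tumor types, and Ccr7 had the lowest log2 fold change of the 53 genes against NG2 cells in each. Ccr7 (chr11:99144196-99155077), which takes T cells, B cells and mature dendritic cells to Ccl19 and Ccl21, had 3654 and 1522 CPM in the sorted cells, 0 and 0.462 in the osteosarcomas and 2.52 and 1.58 in the soft tissue sarcomas. The log2 fold change was -13.67 ± 1.69 in osteosarcoma (adjusted p = 0.00812) and -10.29 ± 1.48 in soft tissue sarcoma (adjusted p = 0.0131). Cxcr5, the receptor that places B cells in follicles, had 305 and 141 CPM in the sorted cells, 0.455 and 0.960 in the osteosarcomas and 1.14 and 0.438 in the soft tissue sarcomas. It fell 322-fold (adjusted p = 0.00552) and 273-fold (adjusted p = 0.00846). Its ligand Cxcl13 had 67.4 and 53.3 CPM in the sorted cells, 0.152 and 1.10 in the osteosarcomas and 4.40 and 0.741 in the soft tissue sarcomas, and also fell in both (-6.65 ± 1.31, adjusted p = 0.0221, and -4.54 ± 1.17, adjusted p = 0.0450). The falls of Ccr7 and Cxcr5 in osteosarcoma passed in all 6 fits, at -12.91 for Ccr7 and -7.67 for Cxcr5 without NG2 cell replicate 1, -12.49 for Ccr7 without osteosarcoma replicate 1 and -8.93 for Cxcr5 without osteosarcoma replicate 2; without the latter, no read of Ccr7 was left in osteosarcoma. Cxcl13 was lost there without either NG2 cell library (adjusted p = 0.0685 and 0.0717), and was at -5.81 without osteosarcoma replicate 1 and -8.61 without replicate 2. All 3 calls in soft tissue sarcoma were lost without either of its libraries (adjusted p = 0.0679 to 0.174), Ccr7 also without NG2 cell replicate 1 (-9.51, adjusted p = 0.0510) and Cxcl13 without either NG2 cell library (0.115 and 0.121). Without soft tissue sarcoma replicate 1, Cxcr5 was at -8.98 and Cxcl13 at -6.34, without replicate 2 Cxcl13 was at -3.81, and without NG2 cell replicate 1 Cxcr5 was at -7.42.

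Of the ligands of Ccr7, Ccl21a passed in 1 comparison and Ccl19 in none. Ccl21a, the homeostatic ligand of lymphatic endothelium and lymph node stroma, had 31.7 and 142 CPM in the sorted cells, 0 and 0.142 in the osteosarcomas and 177 and 45.7 in the soft tissue sarcomas. It fell in osteosarcoma (log2 fold change -10.57 ± 1.65, adjusted p = 0.0129), had a log2 fold change of 0.36 ± 1.00 in soft tissue sarcoma (adjusted p = 0.822), and the difference of 10.93 ± 1.66 between the tumor types missed the threshold (adjusted p = 0.0759). The call in osteosarcoma passed in all 6 fits, at -11.29 and -9.12 without NG2 cell replicate 1 and 2 and at -9.24 without osteosarcoma replicate 1; without osteosarcoma replicate 2 no read was left. Of the 50-base stretches of its exons, 71.6% also occur in Ccl21b and other annotated copies. How reads of these stretches were counted was not given, so the counts are uncertain. Ccl21b, which is wholly made of shared stretches, had 0 counts in all libraries. Ccl19, with 52.0% shared stretches, had 1.77 and 10.6 CPM in the sorted cells, 1.12 and 8.28 in the osteosarcomas and 0.134 and 0 in the soft tissue sarcomas. Its libraries of soft tissue sarcoma lay below the other 4 (log2 fold change -6.29 ± 1.84 against NG2 cells, edgeR adjusted p = 0.0611), and DESeq2 called it lower there against both other groups. The 7 endothelial markers summed to 714 and 1162 CPM in the sorted cells, 104 and 283 in the osteosarcomas and 241 and 157 in the soft tissue sarcomas. Between the tumor types 0 of the 7 passed, with a median log2 fold change of 0.02, and the sum of osteosarcoma replicate 2 was above both soft tissue sarcomas. Of the 7, Lyve1 and Prox1 mark lymphatic endothelium. They were picked out after their values were seen and do not stand for the 7 as a whole. Lyve1 had 53.2 and 26.2 CPM in the sorted cells, 2.99 and 5.94 in the osteosarcomas and 60.4 and 25.4 in the soft tissue sarcomas. Prox1 had 8.17 and 4.47 CPM in the sorted cells, 0.190 and 0.213 in the osteosarcomas and 6.81 and 0.674 in the soft tissue sarcomas. Their part in the level of Ccl21a was not tested.

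Ccr6, a receptor of B cells and Th17 cells, had 83.7 and 31.5 CPM in the sorted cells, 0.0569 and 0 in the osteosarcomas (3 reads) and 0.755 and 0.438 in the soft tissue sarcomas. It fell in both tumor types (adjusted p = 0.00583 and 0.0110), with a log2 fold change of -6.56 ± 0.86 in soft tissue sarcoma and, without NG2 cell replicate 1, -5.68 (adjusted p = 0.0528). Ccr8, a receptor of regulatory T cells, had 2.49 and 3.51 CPM in the sorted cells, 0 counts in the osteosarcomas, and 0.0671 and 0.0674 CPM in the soft tissue sarcomas. It was at least 80.9-fold lower in osteosarcoma (adjusted p = 0.0145, and 0.0558 without NG2 cell replicate 2) and fell 42.8-fold in soft tissue sarcoma (adjusted p = 0.0289, and 0.0728 and 0.0935 without the NG2 cell libraries). Ccl22, a ligand of Ccr4 made by dendritic cells and macrophages, was nearly equal in the NG2 cell libraries, at 126 and 138 CPM, against 0.152 and 0.284 CPM in the osteosarcomas and 3.14 and 1.82 CPM in the soft tissue sarcomas. It fell 623-fold (adjusted p = 0.00419) and 52.7-fold (adjusted p = 0.00730). These 3 genes had, in soft tissue sarcoma, an adjusted p of 0.0654 to 0.180 without either of its libraries. The fall of Ccl22 in osteosarcoma passed in all 6 fits without 1 library. Ccl17, the other ligand of Ccr4, had 8.78 and 13.7 CPM in NG2 cells and 0.107 to 3.62 CPM in the tumors, and did not pass (adjusted p = 0.222 and 0.121). Ccr9, a gut-homing receptor whose annotated exons overlap another gene over 21.4% of their length, had 22.2 and 6.28 CPM in NG2 cells and 0.270 to 1.76 CPM in the tumors, and did not pass either (0.0742 and 0.0785).

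The B cell markers gave 5075 and 1628 CPM in the sorted cells, 2.08 and 2.88 in the osteosarcomas and 4.85 and 8.96 in the soft tissue sarcomas, and all 7 fell in both tumor types. Ms4a1 was at 0 counts in osteosarcoma. Ccr7, Cxcr5 and Ccr6 were higher in NG2 cell replicate 1 than in replicate 2, which was also the order of these markers and of Cxcr4 and Cxcr6. With 2 libraries a gene can have only 1 of 2 orders. Of 7 T and NK cell markers, 6 fell in each tumor type, with a sum of 415 and 589 CPM in the sorted cells, 5.17 and 8.46 in the osteosarcomas and 35.4 and 23.8 in the soft tissue sarcomas, and none was at 0 in any group. The part of these cells in the falls of the receptors was not tested.

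**Figure D4:**
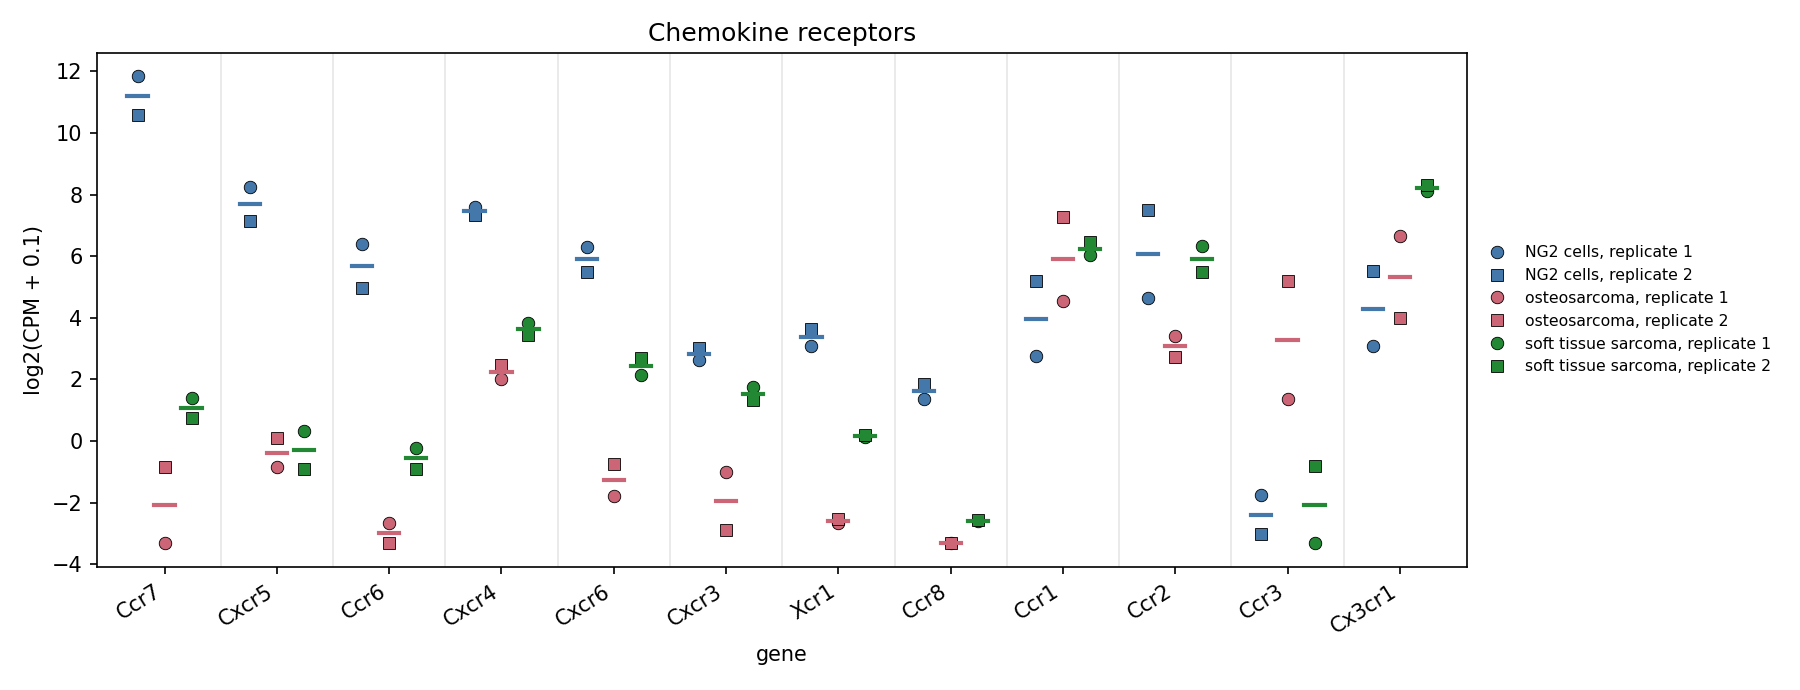
Chemokine receptors in the 6 libraries, as log2(CPM + 0.1), with circles for replicate 1, squares for replicate 2 and a bar at the mean of both. Ccr7, Cxcr5, Ccr6, Cxcr4, Cxcr6 and Xcr1 are below both NG2 cell libraries in all 4 tumors, and Cx3cr1 is above every other library in both soft tissue sarcomas.

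Receptors of effector lymphocytes were lower as well. Cxcr6, a receptor of activated T and NK cells, had 78.9 and 44.8 CPM in the sorted cells, 0.190 and 0.498 in the osteosarcomas and 4.36 and 6.44 in the soft tissue sarcomas. It fell 186-fold (log2 fold change -7.54 ± 0.72, adjusted p = 0.00552) and 11.5-fold (-3.52 ± 0.58, adjusted p = 0.0162). Its ligand Cxcl16, a membrane-bound chemokine of macrophages, did not fall: it had 52.7 and 81.3 CPM in the sorted cells, 52.7 and 80.5 in the osteosarcomas and 186 and 140 in the soft tissue sarcomas, where its 2.43-fold difference missed the threshold (adjusted p = 0.0569). The exons of Cxcl16 overlap those of Zmynd15 over 18.3% of their length, and a strand setting was not given. Cxcr3, the receptor of interferon-induced ligands on Th1 cells, had 6.10 and 7.95 CPM in the sorted cells, 0.398 and 0.0356 in the osteosarcomas and 3.25 and 2.43 in the soft tissue sarcomas, and fell 30.6-fold in osteosarcoma (adjusted p = 0.0325). Its ligands did not pass in any comparison. Cxcl9 had 13.0 and 20.9 CPM in the sorted cells, 1.86 and 41.5 in the osteosarcomas and 2.80 and 1.65 in the soft tissue sarcomas. Cxcl10 had 89.0 and 85.3 CPM in the sorted cells, 5.87 and 49.4 in the osteosarcomas and 35.6 and 19.7 in the soft tissue sarcomas. Both were split between the osteosarcomas, with replicate 2 higher. The fall of Cxcr3 was lost without either NG2 cell library or either soft tissue sarcoma library (adjusted p = 0.0730 to 0.0900) and was at -4.13 without osteosarcoma replicate 2; without replicate 1, a single read was left. Cxcr6 passed in all 6 fits in osteosarcoma, at -8.33 without osteosarcoma replicate 2, and was lost in soft tissue sarcoma without either of its libraries (0.109 and 0.118) and without NG2 cell replicate 1 (0.0682).

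Xcr1, the receptor of cross-presenting dendritic cells, had 8.45 and 12.3 CPM in the sorted cells, 0.0569 and 0.0711 in the osteosarcomas and 1.01 and 1.04 in the soft tissue sarcomas. It fell 157-fold (adjusted p = 0.00646) and 10.1-fold (adjusted p = 0.0221). The fall in osteosarcoma passed in all 6 fits, and that in soft tissue sarcoma was lost without either NG2 cell library (adjusted p = 0.0563 and 0.0748) and either of its own (0.146 and 0.150). Its ligand Xcl1, from NK and CD8+ T cells, had 4.41 and 7.54 CPM in the sorted cells, 0 and 0.0356 in the osteosarcomas (1 read) and 2.92 and 0.876 in the soft tissue sarcomas, and fell in osteosarcoma (adjusted p = 0.0174, and 0.0568 without NG2 cell replicate 2). Over 6 dendritic cell markers the sums lay closer together, at 154 and 146 CPM in NG2 cells and 72.3 to 117 CPM in the tumors, and none was at 0 in any group. Of these, 2 fell in osteosarcoma, and 3 fell and 1 rose in soft tissue sarcoma. The sums hid larger differences of single markers, as the median log2 fold change of the 6 was -2.61 in osteosarcoma and -2.07 in soft tissue sarcoma. The part of dendritic cells in the falls of Xcr1 was not tested.

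The Cxcl12 axis split, with a fall of the signalling receptor and no passing change of the ligand. Cxcr4 (chr1:128588199-128592293), the receptor that holds leukocytes and progenitors in bone marrow, had 192 and 160 CPM in the sorted cells, 3.96 and 5.48 in the osteosarcomas and 14.1 and 10.8 in the soft tissue sarcomas. It fell 37.4-fold (log2 fold change -5.22 ± 0.36, adjusted p = 0.00419) and 14.2-fold (-3.82 ± 0.34, adjusted p = 0.00740). The fall in osteosarcoma passed in all 6 fits, and in soft tissue sarcoma in the 4 that kept both of its libraries (adjusted p = 0.0679 and 0.0737 in the other 2). Cxcl12, its ligand from stromal and perivascular cells, had 380 and 521 CPM in the sorted cells, 15 and 380 in the osteosarcomas and 603 and 362 in the soft tissue sarcomas, so that the tibial osteosarcoma stood below the other 5 libraries (adjusted p = 0.506 and 0.963). Ackr3, the scavenging receptor of Cxcl12, had 31.0 and 73.1 CPM in the sorted cells, 8.74 and 11.6 in the osteosarcomas and 18.5 and 19.1 in the soft tissue sarcomas. It fell 5.13-fold in osteosarcoma (-2.36 ± 0.49, adjusted p = 0.0246), and the call was lost without NG2 cell replicate 2 (-1.61), osteosarcoma replicate 1 or either soft tissue sarcoma library (adjusted p = 0.0587 to 0.0760). In soft tissue sarcoma its adjusted p was 0.0763.

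The other atypical receptors did not pass. Ackr1, the chemokine scavenger of venules and red cells, stood at 13.4 and 44.0 CPM in the sorted cells and at 0 to 2.06 CPM in the tumors (adjusted p = 0.134 and 0.0826), and its exons overlap those of Cadm3 over 25.7% of their length. Of the 7 endothelial markers, whose sums are given with Ccl21a, 4 fell in osteosarcoma and 2 in soft tissue sarcoma, none was at 0 in any group, and their part was not tested. Ackr4, which scavenges Ccl19 and Ccl21, was the atypical receptor with its highest levels in osteosarcoma, at 9.17 and 24 CPM against 0.166 and 2.68 CPM in NG2 cells and 0.789 and 0.303 CPM in the soft tissue sarcomas (3.53 ± 1.34, adjusted p = 0.107). Pf4, a platelet and macrophage chemokine, had 52.2 and 27.6 CPM in the sorted cells, 78.1 and 9.42 in the osteosarcomas and 143 and 146 in the soft tissue sarcomas (adjusted p = 0.192 to 0.927). Cxcl17, a mucosal chemokine, had 0 counts in the sorted cells, 0.379 and 0.284 CPM in the osteosarcomas, and 0.285 and 0.943 CPM in the soft tissue sarcomas. It was at least 16.3-fold higher in soft tissue sarcoma (adjusted p = 0.0426) on 45 reads, and the call was lost in all 6 fits without 1 library (adjusted p = 0.0534 to 0.191).

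Of the remaining genes, Ackr2, Ccl25, Ccl27a, Ccr4, Ccr10 and Cxcl14 were tested and passed in no comparison, each with under 10 CPM in every library. Ccl1, Ccl20, Ccl28 and Cxcl15 had at most 0.268 CPM and were not tested, nor were Ccl21b, Ccl26, Ccl27b and Cxcr1 with 0 counts.

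Per kilobase of exon, which allows levels of different genes to be set side by side, the leading genes changed between the groups. In NG2 cells the highest ligand was Ccl5 (745 and 1007 CPM per kilobase), followed by Ccl4 (410 and 397) and Ccl2 (208 and 353), and the highest receptors were Ccr7 (1847 and 770) and Cxcr4 (106 and 88.4). The ranges of Ccl4 and Ccl2 did not overlap, nor did those of Ccr7 and Cxcr4. In osteosarcoma the highest ligands by mean level were Ccl12 (125 and 58 CPM per kilobase), Ccl9 (6.89 and 122) and Pf4 (108 and 13.1), whose ranges overlap, and the highest receptors were Ccr1 (8.16 and 54.9) and Cx3cr1 (22.2 and 3.51), which overlap too. In soft tissue sarcoma Ccl2 (778 and 723 CPM per kilobase) stood above Ccl7 (440 and 473), Ccl8 (598 and 296) and Ccl12 (214 and 410), and these last 3 overlap. Its highest receptor was Cx3cr1 (61.9 and 70.7), above Ccr1 (22.9 and 30.7) and Ccr2 (11.9 and 6.60).

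**Figure D5:**
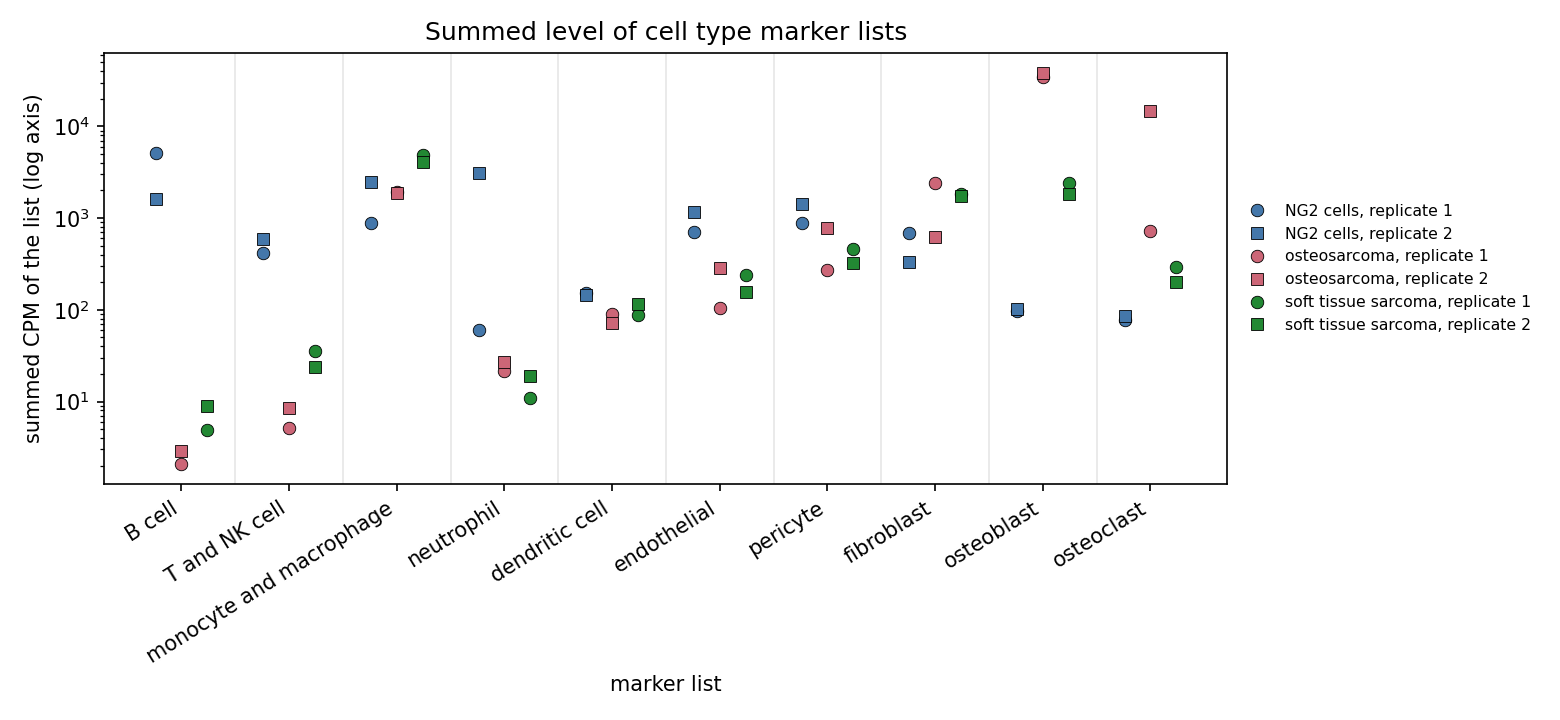
Summed CPM of each list of cell type markers in the 6 libraries on a log axis, with circles for replicate 1 and squares for replicate 2. B cell markers are at 5075 and 1628 CPM in NG2 cells and below 10 CPM in every tumor, whereas monocyte and macrophage markers are between 894 and 4852 CPM in all libraries.

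Genes that carry the signal of chemokine receptors were described from a list of 30, all of them tested. In osteosarcoma 13 fell and 0 rose (1 higher at an unadjusted p under 0.05, 0 by DESeq2), with a median log2 fold change of -1.02, and in soft tissue sarcoma 9 fell and Rgs16 rose, with a median of -1.19. Of all tested genes, 11.0% fell and 10.5% rose in osteosarcoma, where the median was 0.04, whereas 9.4% fell and 9.89% rose in soft tissue sarcoma, where it was 0.00. Dock2, the Rac exchange factor that leukocytes need to migrate, had 339 and 232 CPM in the sorted cells, 16.3 and 8.68 in the osteosarcomas and 31.6 and 21.3 in the soft tissue sarcomas, and fell in both (-4.51 and -3.43, adjusted p = 0.00616 and 0.0111). Others with the smallest p in osteosarcoma were Rgs1, an inhibitor of chemokine receptor signals in lymphocytes (-7.59, adjusted p = 0.00846), and Ccrl2, a receptor-like protein (-6.18, adjusted p = 0.00734). In soft tissue sarcoma the kinase Lyn was among them (-1.77, adjusted p = 0.0137). Rgs1, Ccrl2 and Lyn each fell in both tumor types. Without 1 library, the log2 fold change of Ccrl2 lay between -6.78 and -5.18 (without NG2 cell replicate 1 and 2) and that of Rgs1 between -8.84 and -6.96 (without osteosarcoma replicate 1 and 2), and the calls of Dock2, Rgs1 and Ccrl2 in osteosarcoma were kept. Rgs16, which shortens signals of inhibitory G proteins, went against the list. It had 19.2 and 30.0 CPM in the sorted cells, 21.1 and 17.8 in the osteosarcomas and 196 and 233 in the soft tissue sarcomas. It rose by a log2 fold change of 3.12 ± 0.34 against NG2 cells (adjusted p = 0.00863) and differed between the tumor types by 3.46 ± 0.34 (adjusted p = 0.0459), with the latter call lost without each library other than osteosarcoma replicate 2 (0.0537 to 0.280). Against NG2 cells, the calls of Rgs16, Dock2 and Lyn in soft tissue sarcoma were lost without either of its libraries (0.0679 to 0.120), and that of Lyn without either NG2 cell library (0.0545 and 0.0567). The number of the 30 that fell in osteosarcoma was 6 and 7 without NG2 cell replicate 1 and 2, and 7 and 8 without soft tissue sarcoma replicate 1 and 2. In soft tissue sarcoma it was 3 and 4 without the NG2 cell replicates, 15 and 14 without the osteosarcomas and 0 without either of its own libraries.

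The list of 20 cytokine and NF-κB genes held inducers of chemokines and also inhibitors of NF-κB, such as Tnfaip3. Of these 20, 13 fell in osteosarcoma and 11 in soft tissue sarcoma, with medians of -2.90 and -2.69 and 0 rising in either. At an unadjusted p under 0.05, 1 and 0 were higher, and DESeq2 called 1 (Tnfsf11) and 0 higher. The shares of all tested genes that fell were 11.0% and 9.4%, and those that rose 10.5% and 9.89%. Between the tumor types 0 of the 20 passed, with 3 higher and 2 lower at an unadjusted p under 0.05, and DESeq2 called Il1b, Ltb and Nfkbiz higher and Tnfsf11 lower in soft tissue sarcoma. Rel, the NF-κB subunit of activated lymphocytes, had 717 and 624 CPM in the sorted cells, 4.28 and 7.04 in the osteosarcomas and 6.29 and 6.97 in the soft tissue sarcomas (-6.89 ± 0.40 and -6.66 ± 0.40, adjusted p = 0.00419 and 0.00730). Tnfaip3, the NF-κB inhibitor A20, had 415 and 563 CPM in the sorted cells, 10.2 and 17.4 in the osteosarcomas and 5.34 and 8.49 in the soft tissue sarcomas (adjusted p = 0.00521 and 0.00730). The lymphotoxin subunit Ltb (-5.87 and -3.86, adjusted p = 0.00674 and 0.0140) and Nfkbiz, a nuclear cofactor of NF-κB (-4.60 and -2.93, adjusted p = 0.00710 and 0.0164), came next. In osteosarcoma these 4 calls were kept without any 1 library, with Ltb at -6.72 without osteosarcoma replicate 1 and Nfkbiz at -3.93 without NG2 cell replicate 2. In soft tissue sarcoma they were lost without either of its libraries (0.0649 to 0.123), Ltb also without either NG2 cell library (0.0529 and 0.0588) and Nfkbiz without NG2 cell replicate 2 (-2.25, adjusted p = 0.0565). The number of the 20 that fell in osteosarcoma was 6 without either NG2 cell library, and 7 and 8 without soft tissue sarcoma replicate 1 and 2. In soft tissue sarcoma it was 3 and 2 without the NG2 cell replicates and 0 without either of its own libraries.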

How the data were processed

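Polyadenylated RNA of 6 mouse samples was measured by paired-end sequencing of amplified cDNA. The authors deposited raw read counts per Ensembl gene, 1 table per library, with 5 counters of unassigned reads that were left out here (reads on no gene came to 19.5% to 33.2% of a library). The tools named are STAR, HTSeq, DESeq2, FastQC, cutadapt and Trim Galore, with the builds GRCm38 and mm10, per the submitters' processing notes; versions, strand setting and annotation release are not given in the sources used here. Names and positions are those of GENCODE M21 (GRCm38), which held 36639 of the 38561 IDs, and promoters those of RefSeq (GRCm38.p6), which held 47 of the 61 genes.

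From the counts, edgeR 4.0.16 (R 4.3.3) was run with TMM scaling, filterByExpr (min.count 10, min.total.count 15; 19024 genes left) and quasi-likelihood F tests in 1 model of the 6 libraries, with Benjamini-Hochberg adjustment over all tested genes and a threshold of 0.05. Genes that passed are said to have risen or fallen. The biological coefficient of variation was 0.578, on 3 residual degrees of freedom. A standard error is the log2 fold change divided by the square root of F. A fold against a group at 0 counts is a lower bound with 3 counts over the group, and a group with 1 to 3 counts has no fold. Bounds cover counting error only, since amplified reads are not independent molecules. With 2 libraries in each group, the smallest p of an exact permutation test is 0.333. On counts simulated for the 19024 genes from these libraries' means and sizes, edgeR called 70, 70 and 72 of 100 genes changed 16-fold and 12, 9 and 6 of 100 changed 4-fold in osteosarcoma against NG2 cells, soft tissue sarcoma against NG2 cells and between the tumor types. The changed genes were drawn from those above a floor of mean count, and all other genes had the same mean in every group. These rates therefore do not describe genes with few counts, nor data in which as many genes differ as here.

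The rule for named genes was every called gene of the family and every other one with a group mean of at least 10 CPM, and of the 2 pathway lists the 4 called genes with the smallest p; a few named by it are not reported here, in the text or the figures, but stay in the counts. The genes, lists and tests were chosen with earlier results of these data known. Alternatives were DESeq2 1.42.0, RLE size factors, no filter, only the 2 groups compared, the replicate number as a block and leaving out each library. Replicate numbers did not pair the samples.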

Additional observations from a re-analysis of the deposited data

Results flagged for a closer look

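Ccl2 and Ccl7 were singled out because their change against NG2 cells differed between the tumor types by a test of the difference itself. The difference between soft tissue sarcoma and osteosarcoma was a log2 fold change of 4.0 for Ccl2 (edgeR adjusted p = 0.0459) and of 3.60 for Ccl7 (adjusted p = 0.0434). Both soft tissue sarcomas lay above and both osteosarcomas below the NG2 cells for each gene. Both calls were lost without any 1 library other than osteosarcoma replicate 2, with an adjusted p of 0.0537 to 0.280.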

How the results depend on the processing

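Of 46 calls of chemokine and receptor genes, 14 held under every setting tried, as did 8 of 17 of the pathway genes, and 0 changed direction. The replicate numbers did not pair the samples (correlations of deviations 0.0490, -0.00277 and -0.0864), and with 2 pairs the replicate block gave 20 genes of the family lower in osteosarcoma and, in soft tissue sarcoma, 3 higher and 10 lower. With that block 7 cytokine and NF-κB genes fell in soft tissue sarcoma, 0 family genes and 0 transducers were higher in soft tissue sarcoma than in osteosarcoma, and 2660, 2209 and 8 of all genes were called in the 3 comparisons. DESeq2 called 3 family genes higher in osteosarcoma, 21 lower in soft tissue sarcoma, and 21 higher and 3 lower between the tumor types. By DESeq2, 2 transducers rose and 15 fell in soft tissue sarcoma, and 5 were higher and 1 lower between the tumor types; 1 cytokine or NF-κB gene rose in osteosarcoma, and 3 were higher and 1 lower between the tumor types; all genes came to 6894, 6439 and 1916 calls. Without a filter, 1 family gene rose in osteosarcoma, and 8 family genes, 2 transducers and 409 of all genes were called between the tumor types (the first 2 higher in soft tissue sarcoma). With only the 2 groups compared in the model, 14 transducers fell in soft tissue sarcoma, and 2083 of all genes were called in osteosarcoma. Between the tumor types, 0 family genes, 0 transducers and 0 of all genes were called in that setting. Leaving out 1 library gave 0 to 2 family genes higher and 14 to 26 lower in osteosarcoma, 0 to 8 higher and 0 to 19 lower in soft tissue sarcoma, and 0 to 5 higher between the tumor types. Transducers ranged over 0 to 1 higher and 6 to 14 lower in osteosarcoma, 0 to 1 higher and 0 to 15 lower in soft tissue sarcoma, and 0 to 2 higher between the tumor types. Cytokine and NF-κB genes ranged over 0 to 1 higher and 6 to 15 lower in osteosarcoma and 0 to 16 lower in soft tissue sarcoma. All genes called ranged over 1343 to 3542, 0 to 5038 and 0 to 305. The cause of these changes was not tested. Without osteosarcoma replicate 2, Ccr7 had 0 reads left in that group, and without replicate 1, Cxcl2 had 1. With the other osteosarcoma library left out instead, 13 reads of Ccr7 and 20 of Cxcl2 remained. Such low counts limit how far below the NG2 cells these genes can be placed.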
